A study of Mus musculus with 9 samples.

Results

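Chemokines and their receptors were followed in mouse kidney RNA as 54 of the 22161 gene rows of the table, 34 ligands and 20 receptors. They were taken by symbol: Ccl and Cxcl genes with a number, Cx3cl1, Xcl1, the Ccr, Cxcr and Cx3cr1 receptors, Ccrl2 and the Ackr genes. The rule reads symbols alone, but it was written with earlier results of these data known. A mean of at least 10 normalized counts over the 9 libraries was reached by 38 of them, 23 ligands and 15 receptors, and only these were tested. The study compared whole kidneys of 3 groups with 3 mice each, as poly(A) RNA. The Pkd2+Ift88 knockout group carried the floxed alleles Ift88fl/fl and Pkd2fl/fl, and the Pkd2 knockout group carried Pkd2fl/fl, in both with Pax8rtTA and TetO-cre. The third group is labelled wild type (WT), and whether those mice carry either transgene is not given in the sources used here. Every mouse, WT included, was C57BL/6, was given doxycycline by mouth (2 mg/ml) from postnatal day 28 over 2 weeks, and was examined at the age of 10 weeks (postnatal day 70). Pax8-rtTA drives the cre in epithelial cells of the kidney tubule, so that cells without Pax8, leukocytes among them, keep their alleles, and an undeleted share of each gene's RNA remains in a whole kidney.

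Chemokines are small secreted proteins that bind receptors coupled to G proteins and draw leukocytes along a gradient. They are grouped by the spacing of their first cysteines into CC, CXC, C and CX3C ligands, and most receptors bind several ligands of 1 class. Atypical receptors bind chemokines without signalling through G proteins, and many of them clear the ligand. In kidney, tubule cells, endothelium, stroma and resident macrophages all make chemokines, and Ccl2 with its receptor Ccr2 is the best-known path by which monocytes enter the tissue. Pkd2 encodes the channel polycystin-2, which is mutated in polycystic kidney disease, and Ift88 encodes a transport protein needed to build cilia.

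Pkd2 was 4687 ± 789 normalized counts in Pkd2+Ift88 knockouts, 5118 ± 414 in Pkd2 knockouts and 14095 ± 375 in WT (mean ± SD, n = 3 each). Ift88 was 752 ± 71.4 in Pkd2+Ift88 knockouts, 1140.2 ± 66.0 in Pkd2 knockouts and 1085 ± 41.0 in WT, so that both targeted genes went with the labels. All 8 tubule markers listed (Slc34a1, Umod and others) were present, with sums of 573502 to 716512 normalized counts per library. Mouse names share a prefix between replicates 1 and 2 of WT and between replicates 1 and 2 of the Pkd2 knockouts, whereas replicate 3 of each has a prefix of its own, as do the Pkd2+Ift88 knockouts. Prefix and genotype cannot be told apart. Replicate 3 of the Pkd2 knockouts stood apart from the other 8 libraries in erythroid RNA, with a sum over 5 erythroid genes of 6174 normalized counts against 87.2 to 1012 elsewhere, and fold changes without it are given for Ccr2, Ccl3, Ccl4, Ccl8, Ccl22 and Cxcl9.

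Measured per kilobase of exon, so that genes can be set beside each other, the most abundant members in WT were membrane-bound, epithelial and stromal ligands and 1 scavenging receptor. In WT the mean level per kilobase was 868 ± 539 normalized counts for Ccl28, a mucosal epithelial chemokine, and 853 ± 49.2 for Cx3cl1 (fractalkine), a ligand tethered to the cell membrane. Next were 818 ± 36.8 for Cxcl12, 682 ± 389.8 for its scavenging receptor Ackr3 and 458 ± 32.5 for Cxcl16, another membrane-bound ligand. These first 4 do not differ beyond their SD, since Ccl28 and Ackr3 vary widely between WT mice. The monocyte ligand Ccl2 had a mean level per kilobase of 12.8 ± 5.87 in Pkd2+Ift88 knockouts, 178 ± 206 in Pkd2 knockouts and 21.97 ± 14.97 in WT. In the Pkd2 knockouts its SD was larger than its mean. The 16 genes below the filter had means of 0.317 to 9.45 normalized counts over the 9 libraries. They are Xcl1, Ccl1, Ccl17, Ccl19, Ccl20, Ccl24, Cxcl3, Cxcl5, Cxcl13, Cxcl15, Cxcl17, Ccr3, Ccr4, Ccr6, Ccr8 and Cxcr2. For these genes a difference was not testable at this depth, which is not the same as an absence of the RNA.

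In Pkd2 knockouts set against WT, 1 chemokine gene changed: Cxcl12, which fell. Most of the others had higher means in Pkd2 knockouts without passing the test. The threshold was 0.05 for p-values from limma, adjusted by Benjamini-Hochberg over the 15740 genes tested, and it called 2.4% of all genes in this comparison, 1.14% as higher and 1.25% as lower. Means were higher in Pkd2 knockouts for 32 of the 38 members, where 50.8% of all genes had a higher mean. Ccl7, Ccl8, Ccl11 and Ccl12 passed the filter only through the Pkd2 knockouts, so their higher means there are no separate support. They are among the 32 and enter the medians given next, and Ccl8 and Ccl12 are among the 10 members named by unadjusted p below. The median log2 difference was 0.77 over the members and 0.00 over all genes tested. By class the median was 1.31 for the 15 CC ligands, 0.25 for the 7 CXC ligands, 0.71 for the 6 CC receptors and 0.17 for the 4 CXC receptors. At an unadjusted p below 0.05, 10 members were higher in Pkd2 knockouts, against 9.36% of all genes, and 1 was lower, against 8.67%. Among them are Ccl2, Ccl5, Ccl6, Ccl8, Ccl12, Cxcl10, Cxcl16, Cx3cr1 and Ccrl2. All 3 Pkd2 knockouts lay above all 3 WT mice for 9 members, against 12.4% of all genes, and below them for 1, against 12.8%. The count of 10 was 4 without Pkd2 knockout replicate 1 and 13 without replicate 3.

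**Figure D1:**
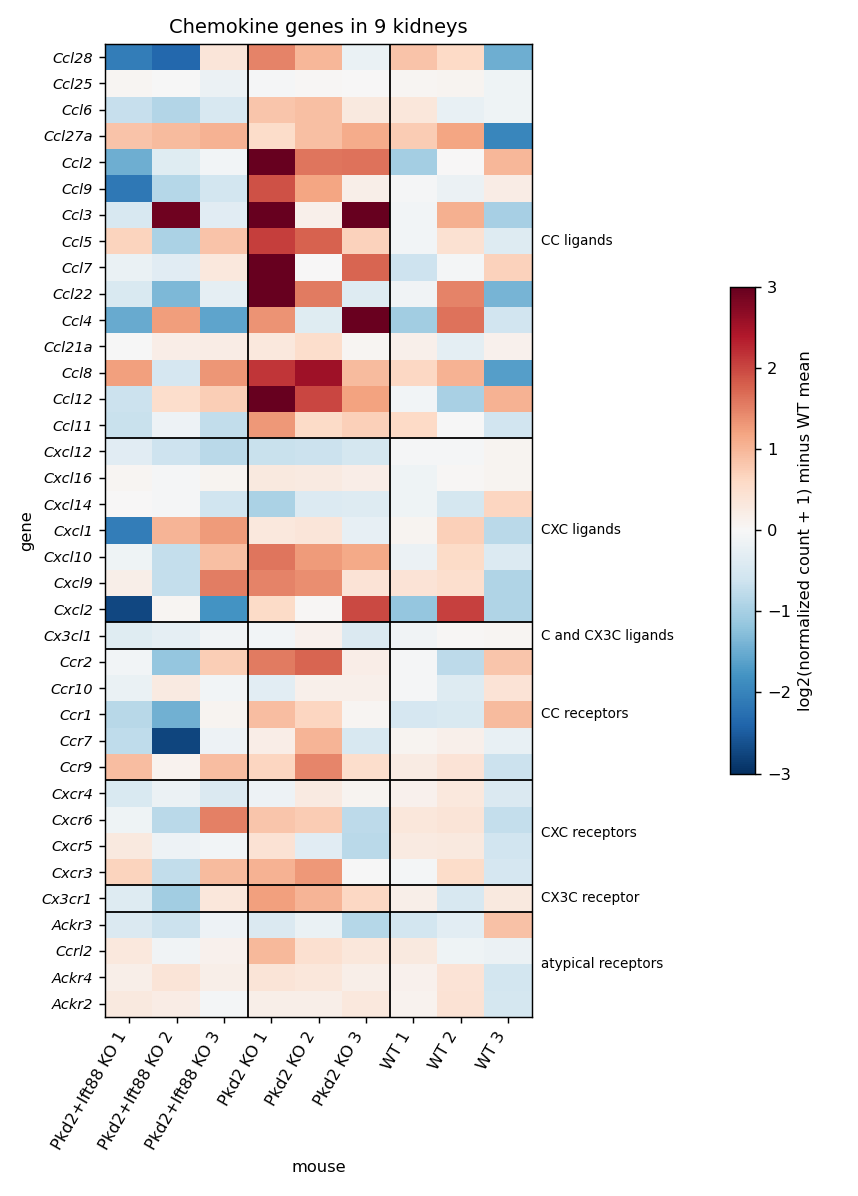
Each row is a tested chemokine gene and each column 1 library, coloured by log2(normalized count + 1) minus the WT mean of that gene; the colour scale ends at -3 and 3, so that larger differences take the end colour. The members' median per library was -0.20, -0.29 and 0.09 in Pkd2+Ift88 knockouts, 0.88, 0.61 and 0.20 in Pkd2 knockouts and -0.03, 0.12 and -0.31 in WT.

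Mice of the same group differed from each other in the tested members, in all 3 groups. Of the 38, Pkd2 knockout replicate 1 was above the WT mean in 31, replicate 2 in 33 and replicate 3 in 27. In the same order the counts were 14, 11 and 20 in Pkd2+Ift88 knockouts and 18, 23 and 15 in WT. With replicate 3 left out, a choice made after seeing the data, the remaining Pkd2 knockouts lay above all WT mice for 20 members, when 23.2% of all genes did so.

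Cxcl12, a stromal and endothelial chemokine that retains cells bearing the receptor Cxcr4, read 5268, 4355 and 3826 normalized counts in Pkd2+Ift88 knockouts, 4217, 4298 and 4616 in Pkd2 knockouts and 6540.3, 6494 and 7036 in WT. All 3 Pkd2 knockouts and all 3 Pkd2+Ift88 knockouts were below the lowest WT mouse, and the 2 mutant groups overlap. Between Pkd2 knockouts and WT the log2 fold change was -0.61 ± 0.11 (SE), with a 95% interval of -0.85 to -0.37 and an adjusted p of 0.0260 by limma. This left 65.4% of the WT mean. Between Pkd2+Ift88 knockouts and WT it was -0.59 ± 0.11, which missed the threshold at an adjusted p of 0.0968. The direct difference of Pkd2+Ift88 knockouts from Pkd2 knockouts was 0.02, with an interval of -0.22 to 0.27. The call on Cxcl12 is close to its threshold: leaving out 1 of the mice other than replicate 3 of the Pkd2 knockouts within the 2 groups compared gave adjusted p-values of 0.0633 to 0.0995, and the fold change stayed between -0.65 and -0.58 in all 24 settings tried.

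The receptors of Cxcl12 were not called. Cxcr4, which signals to migrating leukocytes, read 149, 181 and 150.5 normalized counts in Pkd2+Ift88 knockouts, 183, 247 and 214 in Pkd2 knockouts and 221, 255 and 149 in WT. Its Pkd2+Ift88 knockouts lay below all Pkd2 knockouts, at a log2 difference of -0.42 ± 0.21 and an adjusted p of 0.546. Ackr3, the atypical receptor that takes up Cxcl12, read 1521, 1323 and 1847 normalized counts in Pkd2+Ift88 knockouts, 1525, 1801 and 1140.5 in Pkd2 knockouts and 1405, 1663 and 3784 in WT. WT replicate 3 was more than any other library, and the groups overlap.

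**Figure D2:**
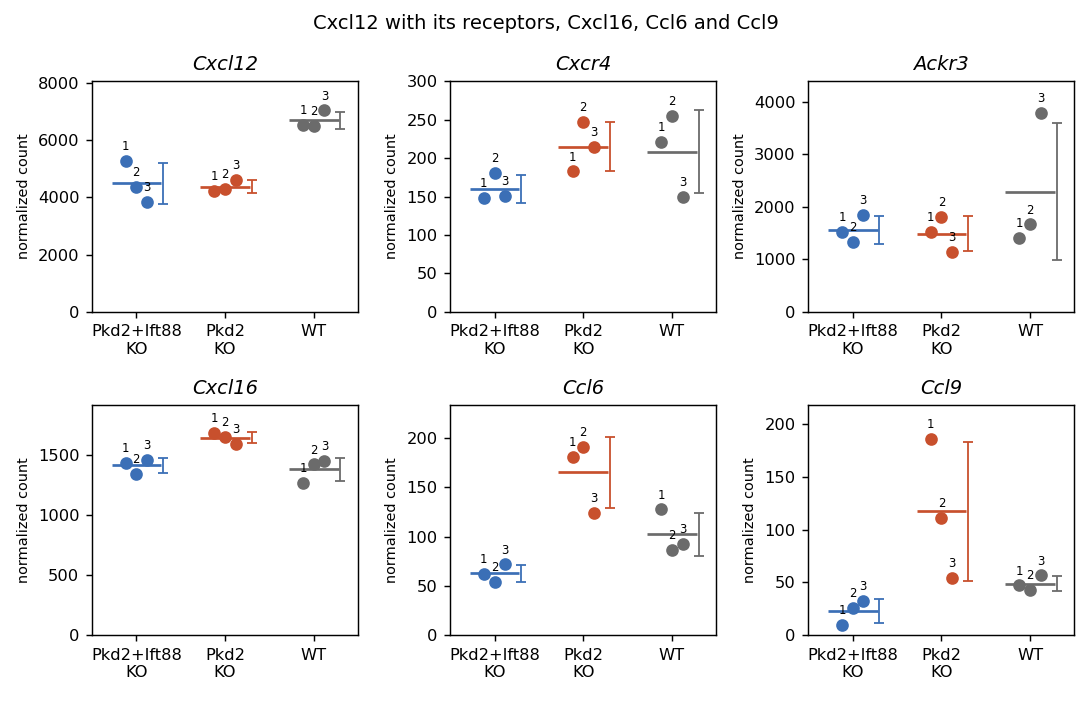
Normalized counts (linear axis from 0) of the 2 called chemokine genes and related genes in each library, with the group mean as a line and the SD as a bar (n = 3 mice) and the replicate number beside each point. For Cxcl12 the WT mice at 6494 to 7036 lie above every mutant, and for Ccl6 the Pkd2+Ift88 knockouts at 54.4 to 71.9 lie below every other library.

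The start regions of the 2 called genes, Cxcl12 and Ccl6, are printed because these genes carry the 2 calls, beside the start of Ccl9, the neighbour of Ccl6. They are the 120 bases before the transcript start in RefSeq on GRCm38.p6, in the gene's own direction. RefSeq entries matched 41 of the 54 members, with 47 start sites. Capitals mark a match to the NF-kB (kappaB) consensus. The positions are chr6:117168415-117168534, plus strand, for Cxcl12, chr11:83593088-83593207, minus strand, for Ccl6 and chr11:83578637-83578756, minus strand, for Ccl9.
Cxcl12: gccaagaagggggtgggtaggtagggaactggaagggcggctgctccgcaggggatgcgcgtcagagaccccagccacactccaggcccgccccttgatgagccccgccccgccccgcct
Ccl6: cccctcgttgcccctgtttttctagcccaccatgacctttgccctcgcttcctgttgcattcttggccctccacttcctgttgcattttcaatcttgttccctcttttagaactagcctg
Ccl9: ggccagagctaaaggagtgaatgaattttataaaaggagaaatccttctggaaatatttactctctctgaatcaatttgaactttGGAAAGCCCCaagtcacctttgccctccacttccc
Cxcl12 and Ccl6 hold no match in these letters, which says nothing of the factor itself. The Ccl9 match begins 35 bases before the start. A kappaB match on either strand lay within the 250 bases before the start at 10 of the 47 member start sites (21.3%) and at 3.9% of 32851 start sites in all. These matches describe letters and no binding was measured.

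The ligands that draw monocytes had higher means in Pkd2 knockouts than in the other groups, with a wide spread between mice. Ccl2, Ccl7, Ccl11, Ccl12 and Ccl8 are neighbours on chromosome 11 in RefSeq on GRCm38.p6. Ccl2, Ccl7 and Ccl12 bind Ccr2, Ccl11 (eotaxin) binds the eosinophil receptor Ccr3, and mouse Ccl8 acts through Ccr8. Ccl2 read 7.12, 16.3 and 20.1 normalized counts in Pkd2+Ift88 knockouts, 474, 66.3 and 68.2 in Pkd2 knockouts and 10.0, 21.4 and 43.5 in WT. Pkd2 knockouts did not overlap either other group, and their replicate 1 was the highest of all 9 libraries. The log2 difference of Pkd2 knockouts from WT was 2.55 ± 0.80, adjusted p = 0.136 by limma, and 1.62 without that mouse. In Ccl7, another ligand of Ccr2, the values were 7.12, 6.34 and 10.5 normalized counts in Pkd2+Ift88 knockouts, 216, 8.41 and 30.2 in Pkd2 knockouts and 5.02, 7.89 and 14.2 in WT. Replicate 2 of the Pkd2 knockouts falls among the WT mice there, so the groups overlap.

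Ccl12 read 3.05, 8.16 and 9.58 normalized counts in Pkd2+Ift88 knockouts, 54.6, 24.3 and 13.6 in Pkd2 knockouts and 5.02, 2.25 and 11.97 in WT, and every Pkd2 knockout was above every other library. Its log2 difference from WT was 2.11 ± 0.66, adjusted p = 0.137. Ccl8 read 14.2, 3.62 and 15.3 normalized counts in Pkd2+Ift88 knockouts, 27.8, 37.4 and 11.7 in Pkd2 knockouts and 9.04, 12.4 and 1.09 in WT, with Pkd2 knockout replicate 3 inside the WT range. Its log2 difference from WT was 1.88 ± 0.79, adjusted p = 0.254, and without that mouse it was 2.34 ± 0.86, adjusted p = 0.166. Ccl11 read 6.11, 9.06 and 5.75 normalized counts in Pkd2+Ift88 knockouts, 26.8, 15.9 and 17.5 in Pkd2 knockouts and 16.1, 10.1 and 6.53 in WT. Here the Pkd2+Ift88 knockouts, at 9.06 or below, were under all Pkd2 knockouts, with a log2 difference of -1.39 ± 0.40, adjusted p = 0.214. In whole-kidney RNA, fewer cells of a type and less RNA per cell cannot be told apart.

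Ccr2, which monocytes need to leave marrow and enter tissue, read 159.8, 74.3 and 282 normalized counts in Pkd2+Ift88 knockouts, 495, 566 and 194 in Pkd2 knockouts and 164, 96.9 and 302 in WT. Replicates 1 and 2 of the Pkd2 knockouts were above every other library and replicate 3 was within the WT range. The log2 difference from WT was 1.16 ± 0.58, adjusted p = 0.334, and without replicate 3 it was 1.64 ± 0.58, adjusted p = 0.150. Cx3cr1, the fractalkine receptor of resident macrophages, read 107, 68.0 and 177 normalized counts in Pkd2+Ift88 knockouts, 329, 286 and 217 in Pkd2 knockouts and 159.7, 100.3 and 172 in WT. All 3 Pkd2 knockouts were above all other libraries, with log2 differences of 0.96 ± 0.34, adjusted p = 0.187 for Pkd2 knockouts against WT and -1.32 ± 0.34, adjusted p = 0.172 for Pkd2+Ift88 knockouts against Pkd2 knockouts. Its ligand Cx3cl1 read 2622, 2762 and 3109.7 normalized counts in Pkd2+Ift88 knockouts, 3189, 3643 and 2494 in Pkd2 knockouts and 3135, 3429 and 3499 in WT, with the interval of the difference between Pkd2 knockouts and WT at -0.42 to 0.17.

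**Figure D3:**
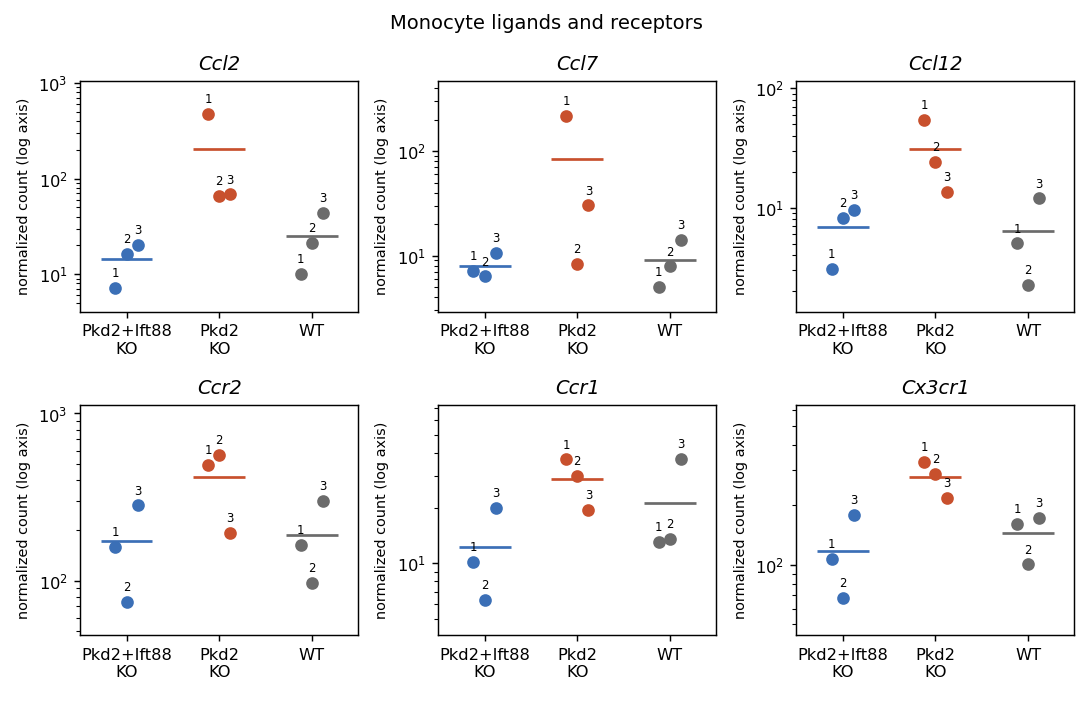
Normalized counts (log axis) of 3 ligands and 3 receptors of the monocyte axis in each library, with replicate numbers beside the points and the arithmetic group mean as a line (n = 3 mice). Pkd2 knockout replicate 1 at 474 for Ccl2 and 216 for Ccl7 is far above the other libraries, and replicate 3 is the lowest Pkd2 knockout for all 3 receptors.

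Ccr1, a receptor of inflammatory monocytes, binds Ccl3 and Ccl5. Ccr1 read 10.2, 6.34 and 20.1 normalized counts in Pkd2+Ift88 knockouts, 36.7, 29.9 and 19.5 in Pkd2 knockouts and 13.1, 13.5 and 37.0 in WT, and WT overlaps the Pkd2 knockouts. Ccl5, made by T cells and macrophages, read 32.6, 9.97 and 37.4 normalized counts in Pkd2+Ift88 knockouts, 88.4, 71.0 and 33.1 in Pkd2 knockouts and 19.1, 28.2 and 15.2 in WT. All Pkd2 knockouts were above all WT mice, at a log2 difference of 1.51 ± 0.53, adjusted p = 0.179.

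Ccl3 and Ccl4, ligands of activated macrophages and neighbours on chromosome 11, spread widely within each group. Ccl3 read 5.09, 63.4 and 5.75 normalized counts in Pkd2+Ift88 knockouts, 74.5, 8.41 and 178 in Pkd2 knockouts and 7.03, 16.9 and 3.27 in WT. Ccl4 read 4.07, 33.5 and 3.83 normalized counts in Pkd2+Ift88 knockouts, 35.8, 10.3 and 112 in Pkd2 knockouts and 6.03, 43.9 and 8.71 in WT. In each group the same mouse was highest for both genes: replicate 2 of the Pkd2+Ift88 knockouts, replicate 3 of the Pkd2 knockouts and replicate 2 of WT. Il1b, an inflammatory cytokine, read 41.7, 81.6 and 53.7 in Pkd2+Ift88 knockouts, 115, 104.7 and 552 in Pkd2 knockouts and 129, 255 and 66.4 in WT, and the same 3 mice were highest in their groups. Its part in the Ccl3 and Ccl4 values was not tested. The log2 difference of Pkd2 knockouts from WT was 2.57 ± 1.20 for Ccl3 and 1.31 ± 1.06 for Ccl4. Without replicate 3 of the Pkd2 knockouts it was 1.65 ± 1.22, adjusted p = 0.477 for Ccl3 and 0.49 ± 1.08, adjusted p = 0.833 for Ccl4.

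Cxcl9 and Cxcl10 are induced by interferon-gamma and draw T cells through Cxcr3. Cxcl10 read 72.2, 48.0 and 149 normalized counts in Pkd2+Ift88 knockouts, 243, 192 and 175 in Pkd2 knockouts and 70.3, 118 and 59.9 in WT. All 3 Pkd2 knockouts were above all other libraries, with log2 differences of 1.34 ± 0.40, adjusted p = 0.120 for Pkd2 knockouts against WT and -1.32 ± 0.40, adjusted p = 0.235 for Pkd2+Ift88 knockouts against Pkd2 knockouts. Cxcl9 read 42.7, 22.7 and 111 normalized counts in Pkd2+Ift88 knockouts, 107, 101 and 50.7 in Pkd2 knockouts and 50.2, 54.1 and 19.6 in WT, and its groups overlap. The Pkd2 knockouts overlap WT only in replicate 3, and the log2 difference from WT was 1.10 ± 0.59, adjusted p = 0.366 with that mouse and 1.44 ± 0.64, adjusted p = 0.247 without it. Cxcr3 read 25.4, 9.06 and 31.6 normalized counts in Pkd2+Ift88 knockouts, 33.8, 40.2 and 15.6 in Pkd2 knockouts and 15.1, 23.7 and 10.9 in WT, again with overlap. Of 13 tested genes in an interferon-gamma list, 0 were called in any of the 3 comparisons by limma, edgeR or DESeq2. At an unadjusted p below 0.05 in limma, 4 were higher in Pkd2 knockouts than in WT (9.36% of all genes). By that measure 2 were lower in Pkd2+Ift88 knockouts than in Pkd2 knockouts (6.49% of all genes).

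The Cxcl10 start region is shown since it holds matches to 2 of the 3 motifs searched for, kappaB and ISRE. It is the 230 bases before the start, chr5:92348890-92349119, minus strand, RefSeq on GRCm38.p6. From left to right the capitals mark an interferon-stimulated response element (ISRE, searched as GAAA and GAAA with any 2 bases between) and a pair of kappaB matches.
Cxcl10: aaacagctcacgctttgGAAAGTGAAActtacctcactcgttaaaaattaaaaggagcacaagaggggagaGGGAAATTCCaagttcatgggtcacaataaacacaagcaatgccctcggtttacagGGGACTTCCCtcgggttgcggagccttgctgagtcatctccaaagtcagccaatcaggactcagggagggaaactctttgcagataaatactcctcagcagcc
The ISRE begins 213 bases before the start and the kappaB matches 159 and 103 bases before it. The ISRE letters were found at 3 of 47 member start sites (6.38%) and at 2.98% of all. A gamma-activated site (GAS, TTCNNNGAA) was found at 3 of 47 and at 7.02% of all, and Cxcl10 held no match to it in the 250 bases searched. Both strands were searched. The start of Cxcl14 also held matches to 2 of the 3 motifs, ISRE and GAS, and is not printed. Ccr6 held GAS and kappaB matches at separate starts.

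Cxcl16 and Cxcr6 form a pair that positions T cells and other lymphocytes. Cxcl16 read 1439.8, 1347 and 1461 normalized counts in Pkd2+Ift88 knockouts, 1690.2, 1655 and 1596 in Pkd2 knockouts and 1272, 1424 and 1454 in WT. Its spread was narrow and the Pkd2 knockouts were above all other libraries, but by little: the log2 difference from WT was 0.25 ± 0.07, adjusted p = 0.117, and the mean was 1.19 times that of WT. Cxcr6 read 26.5, 16.3 and 85.3 normalized counts in Pkd2+Ift88 knockouts, 52.6, 50.5 and 16.6 in Pkd2 knockouts and 37.2, 38.3 and 17.4 in WT, and its highest library was a Pkd2+Ift88 knockout. Cxcl14, an epithelial chemokine, read 603, 576 and 391 normalized counts in Pkd2+Ift88 knockouts, 308, 446 and 452 in Pkd2 knockouts and 539, 415 and 936 in WT, with WT replicate 3 above all others. Cxcr5, the receptor of B cells for Cxcl13, read 32.6, 23.6 and 24.9 normalized counts in Pkd2+Ift88 knockouts, 35.8, 20.6 and 14.6 in Pkd2 knockouts and 32.1, 32.7 and 17.4 in WT, and its 3 groups overlap.

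In Pkd2+Ift88 knockouts set against Pkd2 knockouts, 1 chemokine gene changed: Ccl6, a CC ligand of macrophages in mouse, which fell. No member was called as higher. The same rule called 0.394% of all genes in this comparison, 0.127% as higher and 0.267% as lower. Means were lower in Pkd2+Ift88 knockouts for 33 of 38 members, against 48.7% of all genes (51.3% were higher), and the median log2 difference was -0.90 over the members. Ccl7, Ccl8, Ccl11 and Ccl12, which passed the filter only through the Pkd2 knockouts, are among the 33. All of them but Ccl8 are among the 17 named below, and Ccl11 and Ccl12 are among the 10 that did not overlap. By class the median was -1.86 for CC ligands, -0.22 for CXC ligands, -1.15 for CC receptors and -0.25 for CXC receptors. At an unadjusted p below 0.05, 17 members were lower, against 6.49% of all genes, and 0 were higher, against 4.19%. The 17 are Ccl2, Ccl5, Ccl6, Ccl7, Ccl9, Ccl11, Ccl12, Ccl22, Ccl28, Cxcl2, Cxcl10, Cxcl16, Ccr1, Ccr2, Ccr7, Cx3cr1 and Ccrl2. All 3 Pkd2+Ift88 knockouts lay below all 3 Pkd2 knockouts for 10 members, against 7.78% of all genes, and above them for 0, against 7.4%. This comparison shares its Pkd2 knockout mice with the one against WT, so the 2 sets of differences are not independent. The 17 became 6 without Pkd2 knockout replicate 1, and without replicate 3 the count of members that did not overlap became 21, against 17.3% of all genes.

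Ccl6 read 62.1, 54.4 and 71.9 normalized counts in Pkd2+Ift88 knockouts, 181, 191 and 124 in Pkd2 knockouts and 128, 86.8 and 92.5 in WT. All 3 Pkd2+Ift88 knockouts were below every other library. The log2 fold change against Pkd2 knockouts was -1.36 ± 0.23 (SE), with a 95% interval of -1.87 to -0.86 and an adjusted p of 0.0468 by limma, and the mean was 38.03% of that in Pkd2 knockouts. Against WT the log2 difference was -0.68 ± 0.23, adjusted p = 0.296 in Pkd2+Ift88 knockouts and 0.68 ± 0.23, adjusted p = 0.157 in Pkd2 knockouts. The call did not survive leaving out any 1 mouse other than replicate 3 of the Pkd2 knockouts, with adjusted p-values of 0.0559 to 0.198.

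Ccl9, a ligand of Ccr1 in mouse whose gene is next to Ccl6, read 10.2, 26.3 and 32.6 normalized counts in Pkd2+Ift88 knockouts, 186, 111 and 54.6 in Pkd2 knockouts and 47.2, 42.8 and 56.6 in WT. The Pkd2+Ift88 knockouts were below every other library here too. The log2 difference from Pkd2 knockouts was -2.28 ± 0.50, adjusted p = 0.102, and without replicate 3 of the Pkd2 knockouts Ccl9 was called beside Ccl6. Macrophage markers are given beside these genes. The sum over 14 of them was 5908 to 7468 normalized counts in Pkd2+Ift88 knockouts, 9693, 9105 and 6899 in Pkd2 knockouts and 7564 to 8937 in WT. Their median log2 difference was -0.76 for Pkd2+Ift88 knockouts against Pkd2 knockouts and 0.63 for Pkd2 knockouts against WT, 0 of 14 were called in any comparison by limma or edgeR, and none was at 0 in all libraries. DESeq2 called 1 of the 14 in each of these 2 comparisons. In limma 8 of the 14 had an unadjusted p below 0.05 and were lower in Pkd2+Ift88 knockouts than in Pkd2 knockouts, against 6.49% of all genes. Against WT, 3 were lower in Pkd2+Ift88 knockouts by that measure (5.81% of all genes), and in Pkd2 knockouts 5 were higher (9.36% of all genes) and 2 lower (8.67%). The part of macrophage number in Ccl6 and Ccl9 was not tested.

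**Figure D4:**
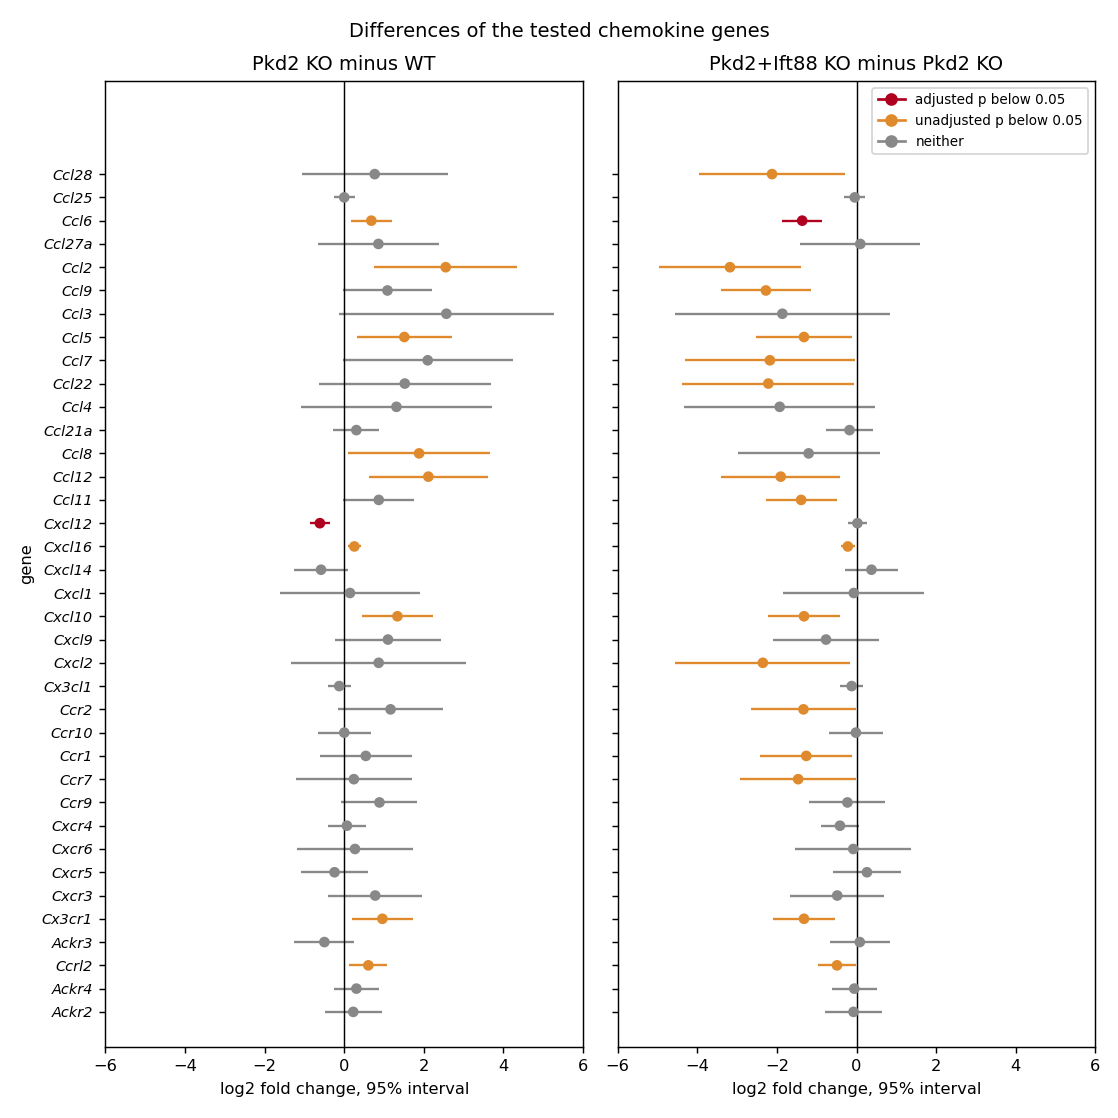
Log2 fold changes of tested chemokine genes with 95% intervals from limma, for Pkd2 knockouts minus WT on the left and Pkd2+Ift88 knockouts minus Pkd2 knockouts on the right. Red marks the 1 gene called in each panel, Cxcl12 at -0.61 and Ccl6 at -1.36, and orange marks an unadjusted p below 0.05.

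Ccl28, which draws plasma cells and T cells to epithelia through Ccr10, was the most abundant CC ligand and varied between mice of every group. It read 811, 667 and 4381 normalized counts in Pkd2+Ift88 knockouts, 9661, 6783 and 2996 in Pkd2 knockouts and 6175, 5200.4 and 1243 in WT. In WT and Pkd2 knockouts replicate 3 was the lowest mouse, while in Pkd2+Ift88 knockouts it was the highest. Replicates 1 and 2 of the Pkd2+Ift88 knockouts were below all other libraries. The log2 difference of Pkd2+Ift88 knockouts from Pkd2 knockouts was -2.12 ± 0.82, adjusted p = 0.374. Ccr10 read 19.3, 27.2 and 21.1 normalized counts in Pkd2+Ift88 knockouts, 17.9, 25.2 and 25.3 in Pkd2 knockouts and 22.1, 16.9 and 30.5 in WT, and its groups overlap. Ccl25, a ligand of Ccr9 known from gut and thymus, read 225, 214 and 189.7 normalized counts in Pkd2+Ift88 knockouts, 209, 221 and 216 in Pkd2 knockouts and 223, 228 and 197 in WT. Its 9 values lay close together, with an interval for Pkd2 knockouts against WT of -0.27 to 0.27.

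**Figure D5:**
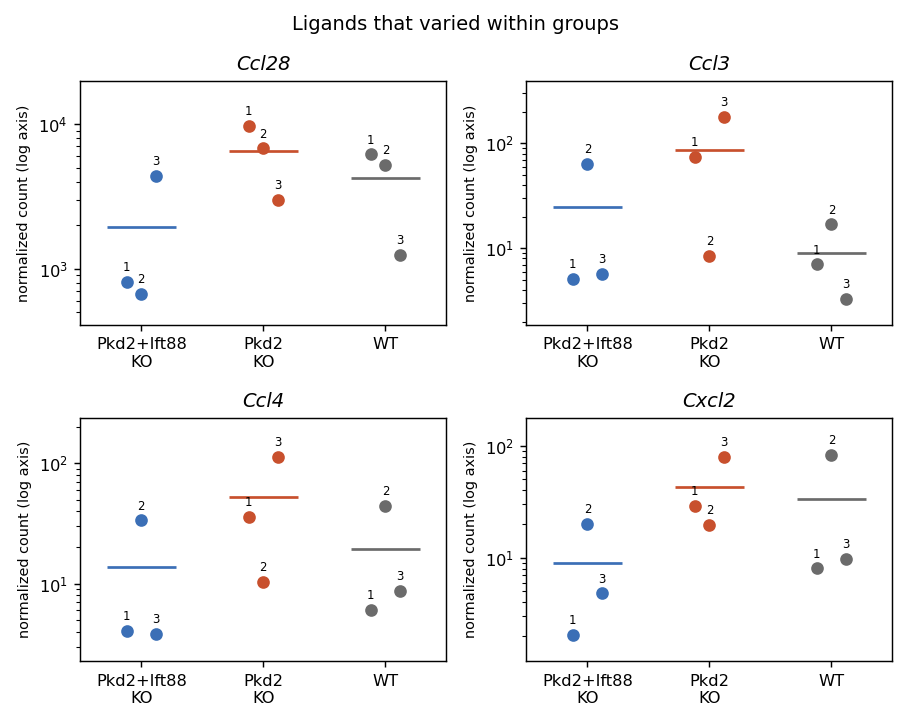
Normalized counts (log axis) of ligands whose mice differed within groups, with replicate numbers beside the points and the arithmetic group mean as a line (n = 3 mice). Ccl28 spans 667 to 9661 and Ccl3 spans 3.27 to 178 over the 9 libraries.

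Ccl22 and Ccl17, neighbours on chromosome 8 and ligands of Ccr4 made by dendritic cells, were highest in replicate 1 of the Pkd2 knockouts. Ccl22 read 9.16, 4.53 and 10.5 normalized counts in Pkd2+Ift88 knockouts, 146, 40.2 and 9.75 in Pkd2 knockouts and 12.1, 38.3 and 4.35 in WT, at a log2 difference of -2.22 ± 0.96, adjusted p = 0.452 for Pkd2+Ift88 knockouts against Pkd2 knockouts. Its groups overlap, with Pkd2 knockout replicate 3 among the other libraries, and without that mouse the difference was -3.17 ± 0.85, adjusted p = 0.115. Ccl17, below the filter and so untested, read 1.02, 0.906 and 0.958 normalized counts in Pkd2+Ift88 knockouts, 38.7, 23.4 and 4.87 in Pkd2 knockouts and 4.02, 9.01 and 2.18 in WT. All 3 Pkd2+Ift88 knockouts were below every other library. The 6 dendritic cell markers summed to 712, 578 and 818 in Pkd2+Ift88 knockouts, 1129, 1199.9 and 563 in Pkd2 knockouts and 636 to 744 in WT, and their part in these values was not tested. Ccr7, which guides dendritic cells and T cells to lymph nodes, read 10.2, 1.81 and 16.3 normalized counts in Pkd2+Ift88 knockouts, 20.9, 37.4 and 12.7 in Pkd2 knockouts and 19.1, 20.3 and 15.2 in WT. Its lowest value was a Pkd2+Ift88 knockout, and the groups overlap. Xcl1, a ligand of cross-presenting dendritic cells, was below the filter and read 8.14, 2.72 and 3.83 normalized counts in Pkd2+Ift88 knockouts, 6.95, 5.61 and 3.90 in Pkd2 knockouts and 2.01, 0 and 2.18 in WT.

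Cxcl1 and Cxcl2 draw neutrophils through Cxcr2, whose RNA was below the filter. Cxcl1 read 30.5, 266 and 320.1 normalized counts in Pkd2+Ift88 knockouts, 165, 168 and 110.2 in Pkd2 knockouts and 139.6, 215 and 75.1 in WT. Pkd2+Ift88 knockouts held both its lowest and its highest value. Cxcl2 read 2.04, 19.9 and 4.79 normalized counts in Pkd2+Ift88 knockouts, 28.8, 19.6 and 79.0 in Pkd2 knockouts and 8.03, 82.3 and 9.80 in WT, with 1 high mouse in each group, the same mice as for Ccl3. Of the 6 neutrophil markers, Ly6g and Mpo were not analysed here, and the other 4 summed to 35.3 to 98.0 normalized counts over the 9 libraries. The Cxcl1 and Cxcl2 start regions are shown to set their shared motif side by side. They are the 120 bases before each start, chr5:90891125-90891244, plus strand, for Cxcl1 and chr5:90903779-90903898, plus strand, for Cxcl2, RefSeq on GRCm38.p6, and capitals mark kappaB matches.
Cxcl1: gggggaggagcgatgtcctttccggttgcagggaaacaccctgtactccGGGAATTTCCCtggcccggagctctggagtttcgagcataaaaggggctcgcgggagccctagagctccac
Cxcl2: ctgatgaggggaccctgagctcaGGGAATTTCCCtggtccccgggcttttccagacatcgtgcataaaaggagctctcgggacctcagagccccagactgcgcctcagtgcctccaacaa
In each gene 2 matches on opposite strands overlap over the same letters, the first beginning 71 bases before the start in Cxcl1 and 97 bases before it in Cxcl2.

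Among atypical receptors, Ccrl2, which binds chemerin, read 139, 105.1 and 124 normalized counts in Pkd2+Ift88 knockouts, 223, 158 and 143 in Pkd2 knockouts and 139, 103 and 100.1 in WT. All Pkd2 knockouts were above all other libraries, with log2 differences of 0.61 ± 0.21, adjusted p = 0.179 for Pkd2 knockouts against WT and -0.49 ± 0.21, adjusted p = 0.453 for Pkd2+Ift88 knockouts against Pkd2 knockouts. Ackr4, which scavenges Ccl19, Ccl21 and Ccl25, read 54.9, 63.4 and 54.6 normalized counts in Pkd2+Ift88 knockouts, 63.6, 61.7 and 54.6 in Pkd2 knockouts and 53.2, 64.2 and 32.7 in WT, and the 3 groups overlap. Its interval for Pkd2 knockouts against WT was -0.26 to 0.87. Of the other tested members, Ccr9 had values of 5.44 to 27.1 and Ackr2 8.71 to 18.0, and neither had an unadjusted p below 0.05 in any comparison. Ccl27a and Ccl21a have near-identical copies in the mouse genome that share reads, so their counts are uncertain. Ccl27a, a skin chemokine that binds Ccr10, read 113, 121 and 128 normalized counts in Pkd2+Ift88 knockouts, 91.4, 115.9 and 135 in Pkd2 knockouts and 105.5, 142 and 15.2 in WT, where WT replicate 3 was below all other libraries. Ccl21a, which guides cells with Ccr7, spanned 15.8 to 29.0 normalized counts over the 9 libraries.

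Values in every library of Ccl20, Cxcl13 and Ccl24 and group means of Cxcl17 and Ccr6 are given with no test. These genes are below the filter and were named after their values were seen. They do not stand for all genes below the filter. Cxcl17 had means of 3.92 in Pkd2+Ift88 knockouts, 0.954 in Pkd2 knockouts and 3.65 in WT. For Ccr6 these were 2.92, 4.16 and 4.64. Ccl20, the ligand of Ccr6, read 0, 0 and 0.958 normalized counts in Pkd2+Ift88 knockouts, 3.97, 5.61 and 2.92 in Pkd2 knockouts and 1.004, 1.13 and 0 in WT, and all 3 Pkd2 knockouts were above all other libraries. Cxcl13, the B cell attractant that binds Cxcr5, read 3.05, 0 and 8.62 normalized counts in Pkd2+Ift88 knockouts, 17.9, 33.6 and 3.90 in Pkd2 knockouts and 8.03, 1.13 and 7.62 in WT, with replicates 1 and 2 of the Pkd2 knockouts highest. Ccl24, an eosinophil attractant that binds Ccr3, read 0, 1.81 and 0.958 normalized counts in Pkd2+Ift88 knockouts, 13.9, 0 and 14.6 in Pkd2 knockouts and 1.004, 7.89 and 0 in WT. Its high values were in replicates 1 and 3 of the Pkd2 knockouts and in replicate 2 of WT. Values this low rest on a few reads per library.

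Pkd2+Ift88 knockouts set against WT gave 0 called members by limma, against 0.229% of all genes, 0.0762% being higher and 0.152% lower. The unadjusted p was below 0.05 for 3 lower members (Cxcl12, Ccl6 and Ccl9), against 5.81% of all genes, and for 0 higher ones, against 5.93%. On the 7 libraries with recovered reads, edgeR called 0 members and DESeq2 called 1, Cxcl12. Means were higher in Pkd2+Ift88 knockouts for 18 of 38 members, against 49.8% of all genes, and the median was -0.03. All 3 Pkd2+Ift88 knockouts were below all WT mice for 4 members, Cxcl12, Ccl6, Ccl9 and Cx3cl1, against 9.24% of all genes, and above them for 0, against 9.1%. The log2 difference was -1.19 ± 0.50, adjusted p = 0.397 for Ccl9 and -0.25 ± 0.13, adjusted p = 0.506 for Cx3cl1. For Ccl2 it was -0.63 ± 0.80, with an interval of -2.43 to 1.16, too wide to place the 2 groups at the same level.

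Genes that work downstream of the receptors were taken as a chemokine signalling list with 35 tested members. The list's median log2 difference was 0.13 for Pkd2 knockouts against WT and -0.11 for Pkd2+Ift88 knockouts against Pkd2 knockouts. In the first comparison limma called 1 of them, as higher, where it called 1.14% of all genes as higher. At an unadjusted p below 0.05, 8 were higher (9.36% of all genes) and 1 lower (8.67%). In the second comparison limma called 0 of them, with 9 lower (6.49% of all genes) and 3 higher (4.19%) at an unadjusted p below 0.05. On the 7 libraries with recovered reads edgeR called 0 of the list in any comparison and DESeq2 called 1 in Pkd2+Ift88 knockouts against Pkd2 knockouts. A list of presentation, processing and clearance genes had 0 of 21 called in any comparison by limma, and a list of inducers and inflammatory NF-kB genes had 0 of 23. By unadjusted p the first had 3 higher and 1 lower in Pkd2 knockouts against WT and 4 lower in Pkd2+Ift88 knockouts against Pkd2 knockouts. The second had 3 higher and 1 lower in Pkd2 knockouts against WT and 8 lower in Pkd2+Ift88 knockouts against Pkd2 knockouts. The shares over all genes were 9.36% higher and 8.67% lower in Pkd2 knockouts against WT, and 6.49% lower in the other comparison. For both lists edgeR called 0, and DESeq2 called 1 of the second in Pkd2+Ift88 knockouts against Pkd2 knockouts.

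Markers of other cells are given here beside the chemokine genes. The 6 fibroblast markers summed to 5015 to 5724 normalized counts in Pkd2+Ift88 knockouts, 10857, 10812 and 7263 in Pkd2 knockouts and 5984 to 7013 in WT. Of these, the collagen gene Col1a1 fell in Pkd2+Ift88 knockouts against Pkd2 knockouts, with a log2 fold change of -2.06 ± 0.29 and an adjusted p of 0.0335 by limma. At an unadjusted p below 0.05 in limma, 4 of the 6 were lower in that comparison (6.49% of all genes). In Pkd2 knockouts against WT 2 were higher by that measure (9.36%). DESeq2 called 2 of the 6 in the first of these comparisons and 1 in the second, and edgeR called 0. T cell markers, of which 7 of 8 were tested, summed to 165, 129 and 355 in Pkd2+Ift88 knockouts, 314, 393 and 136 in Pkd2 knockouts and 108 to 183 in WT. By limma, edgeR or DESeq2, 0 of them were called in any comparison. In limma 2 were higher in Pkd2 knockouts than in WT at an unadjusted p below 0.05 (9.36% of all genes). Replicate 3 of the Pkd2+Ift88 knockouts was the highest of its group for T cell markers, as it was for Ccr2, Cxcl9 and Cxcr6. Of the 8 tubule markers limma called 3 as lower in Pkd2 knockouts against WT (1.25% of all genes), Slc12a1, Umod and Atp6v1g3. DESeq2 called 3 of the 8 in that comparison and edgeR 0. At an unadjusted p below 0.05 in limma, 4 of the 8 were lower there (8.67% of all genes) and 0 higher. By that measure 2 were higher in Pkd2+Ift88 knockouts than in Pkd2 knockouts (4.19% of all genes) and 0 lower. Against WT, 1 was higher in Pkd2+Ift88 knockouts (5.93%) and 2 lower (5.81%). In the marker lists of B cells, NK cells, neutrophils, platelets, blood and lymphatic endothelium, lymph node stroma, adipose and adrenal tissue, erythroid cells and podocytes, 0 of 33 tested genes were called in any comparison by limma, edgeR or DESeq2. At an unadjusted p below 0.05 in limma, 9 of the 33 were lower in Pkd2+Ift88 knockouts than in Pkd2 knockouts (6.49% of all genes), 5 of them the erythroid genes. In that comparison 1 of the 33 was higher (4.19% of all genes). By that measure 2 were higher (9.36% of all genes) and 3 lower (8.67%) in Pkd2 knockouts than in WT. The part of these cells in the chemokine values was not tested.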

How the data were processed

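Kidney poly(A) RNA of 9 mice, 3 per genotype, was read from 1 table of normalized counts per gene, a signal that the authors deposited after aligning reads with STAR 2.5.0, counting them with HTSeq 0.6.1 and scaling them with DESeq2 (tools per the submitters' processing notes). Neither build, annotation nor strand setting is stated (not given in the sources used here), so overlapping and antisense genes cannot be separated from their partners. Normalized totals were 40454151 to 42874467 per library. Every value was a whole multiple of 1 read (100% at a tolerance of 0.05), which gave 37056843 to 47314829 reads for 7 libraries. This unit was 1.0043 in WT replicate 1 and 0.9931 in Pkd2 knockout replicate 1, within 1% of 1. A cut set at 1% kept both libraries out of count tests, although their values were whole multiples as well. Count tests therefore lacked the Pkd2 knockout with the highest members' median log2 difference from the WT mean, 0.88. Of the row names, 25 had turned into dates and were not used.

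One limma model (limma 3.58.1, R 4.3.3) with a mean per group was fitted to log2(normalized count + 1) of the 15740 genes averaging 10 or more, with an intensity trend and two-sided Benjamini-Hochberg adjustment over all of them at 0.05. Fold changes on this scale understate those of low genes, and errors are SDs or SEs between mice. The series states that replicates are biological, and the fit takes mice as independent. Levels per kilobase used summed exon lengths of GENCODE M21, possibly another annotation than theirs. Promoter letters came from RefSeq (GRCm38.p6). Members and gene lists were chosen with earlier results of these data known. Values in every library are given for members called or with an unadjusted p below 0.05 in any comparison, and for the 3 most abundant of each class. Ccl3, Ccl4, Ccl17, Ccl20, Ccl24, Ccl27a, Cxcl1, Cxcl9, Cxcl13, Cxcr3, Il1b and the named markers fall outside this rule and were named after their values were seen. The gene of the receptor Ackr1 stands under an older symbol, outside the symbol rule, and is no member. The fit was tested on simulated data. Alternatives were pseudocounts of 0.1 and 10, no filter or a mean of at least 50, median-ratio, TMM and quantile scaling, fits with no trend, with array weights for quality, with a replicate block or of 2 groups alone, leaving out each library or the mice with the other name prefix, and, on the 7 libraries, limma, DESeq2 1.42.0 and edgeR 4.0.16. Counts of members that do not overlap without Pkd2 knockout replicate 3 were added after seeing the data. Counting error alone would understate the error, since reads carry no molecular identifiers. Results for some genes are not reported here.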

Additional observations from a re-analysis of the deposited data

Results flagged for a closer look

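For Ccl6 the mean log2 difference from WT had opposite signs in the 2 mutant groups, and the difference between the groups passed the test. Its log2 difference from WT was -0.68 ± 0.23 in Pkd2+Ift88 knockouts and 0.68 ± 0.23 in Pkd2 knockouts, and neither passed the test on its own. The 2 share their WT mice, so the difference between them is the direct contrast of the mutants, -1.36 ± 0.23 on the log2 scale with an adjusted p of 0.0468 by limma. That call rests on all but 1 of the 9 mice: without any mouse other than Pkd2 knockout replicate 3 the adjusted p was 0.0559 to 0.198.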

How the results depend on the processing

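Only the 31 member differences with an unadjusted p below 0.05 in the main limma fit were followed through the settings that tested them. Each kept 1 direction. They were picked by that p and refitted on largely the same mice, so a kept direction is no separate support. Over all 38 members, the number with a higher mean ran from 27 to 33 in Pkd2 knockouts against WT. It ran from 4 to 12 in Pkd2+Ift88 knockouts against Pkd2 knockouts. The calls changed with the setting. In Pkd2 knockouts against WT the 1 call (Cxcl12) became 0 without the intensity trend, with a replicate block, without the mice of the other name prefix, with limma on the 7 libraries with recovered reads and with edgeR on them, and 13 with array quality weights. Leaving out 1 mouse gave 0 to 1 calls. In Pkd2+Ift88 knockouts against Pkd2 knockouts the 1 call (Ccl6) became 0 with no filter, a mean of at least 50, quantile scaling, only the 2 groups, the block, limma on the 7 libraries and edgeR, 6 with array quality weights, 2 without the other name prefix and 2 (Ccl2 and Ccl6) with DESeq2. Leaving out 1 mouse gave 0 to 2. Against WT, Pkd2+Ift88 knockouts had 0 calls, 1 with array quality weights and 1 with DESeq2, and 0 to 1 when 1 mouse was left out. The cause of these shifts was not tested, except that fits on 7 libraries hold fewer mice. Cxcl12 passed in 14 of its 24 settings, Ccl6 in 9 of 24.

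Over all genes, limma called 377, 62 and 36 in Pkd2 knockouts against WT, Pkd2+Ift88 knockouts against Pkd2 knockouts and Pkd2+Ift88 knockouts against WT. Array quality weights gave 3222, 614 and 295, DESeq2 296, 149 and 111, edgeR 11, 10 and 10, limma on the same 7 libraries 13, 11 and 11, and the replicate block 217, 15 and 20. Without the other name prefix the counts were 517, 308 and 111. Quantile scaling gave 31 for the second and only the 2 groups gave 26. Leaving out 1 mouse gave 70 to 436, 8 to 154 and 18 to 58. The 17 members lower in Pkd2+Ift88 knockouts than in Pkd2 knockouts at an unadjusted p below 0.05 were 10 under quantile scaling. Over the 9 pairs of samples with the same replicate number the correlation of deviations was -0.142 to 0.215, with 2 over 0.1, and 3 of 9 libraries correlated best with their own number, so the numbers are not treated as pairs. Members with few reads are limited by depth, and 3 mice per group limit every call.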
